A study of Arabidopsis thaliana with 12 samples.

Results

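Artificial microRNA silencing of SNF4 in Arabidopsis thaliana seedlings was accompanied by high transcript levels of 6 genes that were low in wild type. They are AT5G38910, AT3G60420, AT1G21520, AT2G30670, AT5G24210 and AT3G28510. They were selected on measured values out of 13356 genes, the rule asking for a wild-type level near the floor of the array and a level in the silenced seedlings about 37-fold or more higher in both growth conditions. These levels chose the genes, so every difference between groups in the 6 genes is given as a description without a test. The wild-type level was not near the floor in every case: that of AT1G21520, at means of 5.73 in darkness and 6.08 in light, was close to the median gene at 6.04 and 6.07 (the scale, log2(intensity + 16), starts at 4).

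The study compared 4 groups of 3 arrays. Col-0 wild type control seedlings and amiR-SNF4 seedlings were each grown in darkness or in light, on medium with 0.5% sucrose at 22 °C. The light regime was 8 h light and 16 h dark. Per the series text, all seedlings, the wild type included, grew with 5 µM β-estradiol, the inducer of the artificial microRNA. Whole seedlings were taken at 5 days after germination, 4 h after the light period began. An age of 7 days after sowing is also given, for the light-grown samples only. The sample labels give a light intensity of 120 and the series text one of 400. The labels call the 3 arrays of a group biological replicates without saying whether they came from separate cultures, so the p-values below measure the spread among these samples, which may be partly technical. No silenced line without inducer and no other transgenic line was analysed here, so effects of the line and of the silencing cannot be told apart.

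SNF4 is the activating subunit of SnRK1, a protein kinase complex that senses low energy in plant cells and shifts them from growth to the use of reserves. An artificial microRNA is a designed small RNA that directs the cleavage of one chosen transcript, here under an estradiol-inducible switch. The 6 genes, apart from AT1G21520, are placed in different protein families. AT5G38910 is generally annotated as a germin-like protein, one of a large group of secreted cupins of the plant cell wall, some of which make hydrogen peroxide. AT3G60420 is generally annotated as a member of the phosphoglycerate mutase family, enzymes that act on phosphate groups. AT2G30670 is placed among the short-chain dehydrogenases related to tropinone reductase, AT5G24210 among the class 3 lipases, and AT3G28510 among the AAA-type ATPases related to yeast Bcs1, a mitochondrial membrane protein. AT1G21520 encodes a protein of unknown function. The tables used here name these genes by their locus alone, so the families come from general knowledge.

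Deposited median intensities of the 12 arrays lay between 39.4 and 99.5, and all values below were quantile normalised between arrays. No probe set named SNF4 was analysed here, so the silencing itself was not checked. The summed intensity of 4 photosynthetic genes, all 4 of which were measured, was 6946 to 9875 on the wild-type arrays from darkness and 1953 to 3550 on the silenced ones. In light it was 9230 to 11350 in wild type and 5764 to 6111 in the silenced seedlings. Of 4 root markers, 2 were measured, EXPA7 and EXPA18, and their sum was 52.9 to 78.7 and 21.7 to 25.5 in darkness, and 90.9 to 142 and 64.7 to 83.0 in light, in wild type and silenced seedlings respectively. Of 4 seed reserve markers, 3 were measured, and their sum was 3052 to 5162 in wild type and 2742 to 5197 in silenced seedlings from darkness, against 14.8 to 90.3 and 74.5 to 85.4 in light. What part such differences in tissue make-up have in the results was not tested, and in whole seedlings fewer cells of a type and less RNA per cell cannot be told apart.

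AT5G38910, the germin-like gene, had normalised intensities of 21.1, 23.3 and 4.96 on the 3 wild-type arrays from darkness and of 6321, 4769 and 7120 on the 3 silenced ones. In light its intensities were 20.04, 9.45 and 12.7 in wild type and 813, 1226 and 1253 in the silenced seedlings. Every silenced array stood far above every wild-type array, and the silenced arrays from light stood clearly below those from darkness. On the log2(intensity + 16) scale, used for all differences here, the silencing effect was 7.58 ± 0.26 (SE, n = 3 arrays a group) in darkness and 5.20 ± 0.26 in light, or 192-fold and 36.7-fold.

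AT3G60420, the phosphoglycerate mutase family member, read 1.97, 0.613 and 2.28 in dark-grown wild type and 3171, 3215 and 3474 in dark-grown silenced seedlings. In light it read 19.5, 20.7 and 15.8 in wild type and 1814, 1950 and 2203 in silenced seedlings. The wild-type arrays from light were all higher than those from darkness, while the silenced arrays from light were all lower. The silencing effect was 7.55 ± 0.12, or 187-fold, in darkness and 5.85 ± 0.12, or 57.7-fold, in light. A second probe set of AT3G60420 did not show this rise. The probe set used was chosen for its higher mean over all 12 arrays, which include the silenced arrays where it is high. In dark-grown wild type its log2 mean was 4.14 against 4.25 for the second probe set, and in light-grown wild type 5.11 against 4.14. Why the probe sets differ was not tested. The second probe set had a deposited intensity between 1.24 and 3.69 on all 12 arrays, and a silencing effect of -0.08 ± 0.13 in darkness and 0.07 ± 0.13 in light. The other 5 genes were each read by 1 probe set.

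AT1G21520, whose function is unknown, read 61.1, 38.0 and 20.0 in wild type from darkness and 7406, 8991 and 8991 in silenced seedlings. In light it read 59.1, 48.1 and 48.3 in wild type and 4268, 5589 and 5105 in silenced seedlings. Here too the silenced arrays from light were all below those from darkness, while the wild-type arrays of both conditions overlapped. Identical values on a pair of arrays arise where a probe set has the same rank on both, since quantile normalisation gives equal ranks equal values. The silencing effect was 7.31 ± 0.23 in darkness and 6.20 ± 0.23 in light, or 159-fold and 73.5-fold.

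AT2G30670, the short-chain dehydrogenase, read 12.8, 18.5 and 22.9 in wild type and 4876, 3240 and 4056 in silenced seedlings from darkness. In light it read 35.6, 30.3 and 35.4 in wild type and 2671, 2664 and 2709 in silenced seedlings. The wild-type arrays were all higher in light and the silenced arrays all lower. The silencing effect was 6.89 ± 0.16 in darkness and 5.76 ± 0.16 in light, or 119-fold and 54.3-fold.

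AT5G24210, the class 3 lipase family member, read 9.70, 7.94 and 3.38 in wild type and 2868, 2600 and 2511 in silenced seedlings from darkness. In light the readings were 29.3, 34.9 and 32.6 in wild type and 1805, 1724 and 1953 in silenced seedlings. The opposite order of light and dark in the genotypes was seen in this gene as well. Its silencing effect was 6.87 ± 0.14 in darkness and 5.25 ± 0.14 in light, or 117-fold and 38.2-fold.

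AT3G28510, the AAA-type ATPase, read 4.51, 1.66 and 8.67 in wild type and 2461, 1404 and 1913 in silenced seedlings from darkness. In light it read 1.01, 1.11 and 0.394 in wild type and 1345, 1135 and 1310 in silenced seedlings. It was the only one of the 6 genes in which all wild-type arrays from light were below all those from darkness. The silencing effect was 6.51 ± 0.19 in darkness and 6.24 ± 0.19 in light, or 91.2-fold and 75.8-fold.

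**Figure D1:**
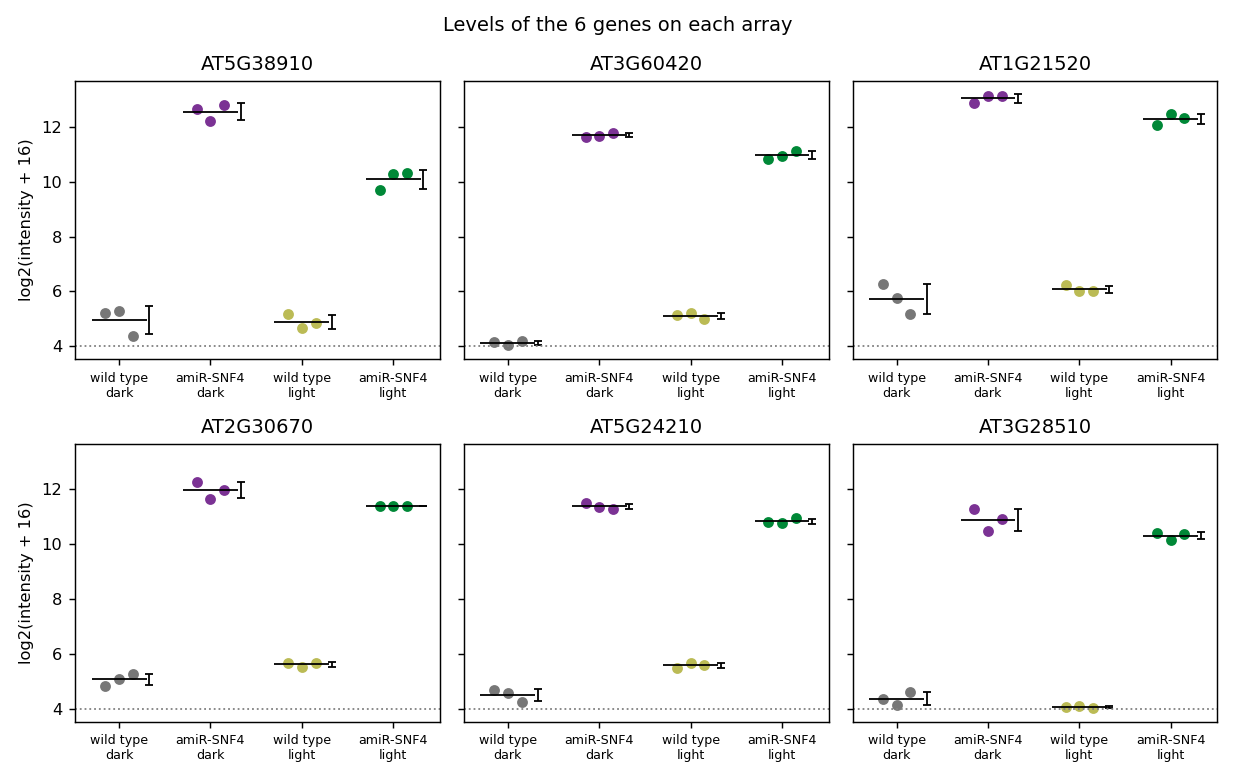
Level of each gene on each of the 12 arrays, as log2(normalised intensity + 16), with 1 panel a gene. Points are arrays, horizontal lines are group means, bars are 1 SD (n = 3), and the dotted line at 4 is the value of an intensity of 0; wild-type means lie between 4.07 and 6.08 and silenced means between 10.09 and 13.04.

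In both conditions the silenced and wild-type arrays did not overlap in any of the 6 genes. Since the rule for choosing the genes used these differences, nothing is read from that count; over all genes, 17.2% were higher without overlap in darkness and 17.6% in light. The folds depend on the constant of 16 added before the logarithm, because wild-type intensities are low. With a constant of 1 or 64, or another scaling, the fold of AT3G60420 in darkness ranged from 51.0 to 1312 and that of AT3G28510 in light from 20.4 to 698. The fold of AT1G21520 ranged from 83.0 to 227 in darkness and from 43.4 to 94.3 in light.

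The lowest of the folds that set the limit was the 36.7-fold of AT5G38910 in light. Altogether 8 genes reached that fold in both conditions. The remaining 2 were AT1G43910, another AAA-type ATPase, at 68.1-fold in darkness and 44.2-fold in light, and AT4G36430, of the class III peroxidases, at 68.5-fold and 43.1-fold. Both had a wild-type mean in darkness, 6.15 and 6.82, above the highest of the 6 genes, which was 6.08 for AT1G21520 in light. In light the wild-type mean of AT1G43910 was 5.98, below that of AT1G21520, and the wild-type mean of AT4G36430 was 6.23. Just below the limit came AT4G33720, of the pathogenesis-related protein 1 family, at 33.1-fold in darkness and 32.8-fold in light. Next were AT5G52750, whose smaller fold was 25.6, and AT2G04050, a MATE-type transporter, whose smaller fold was 25.2.

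**Figure D2:**
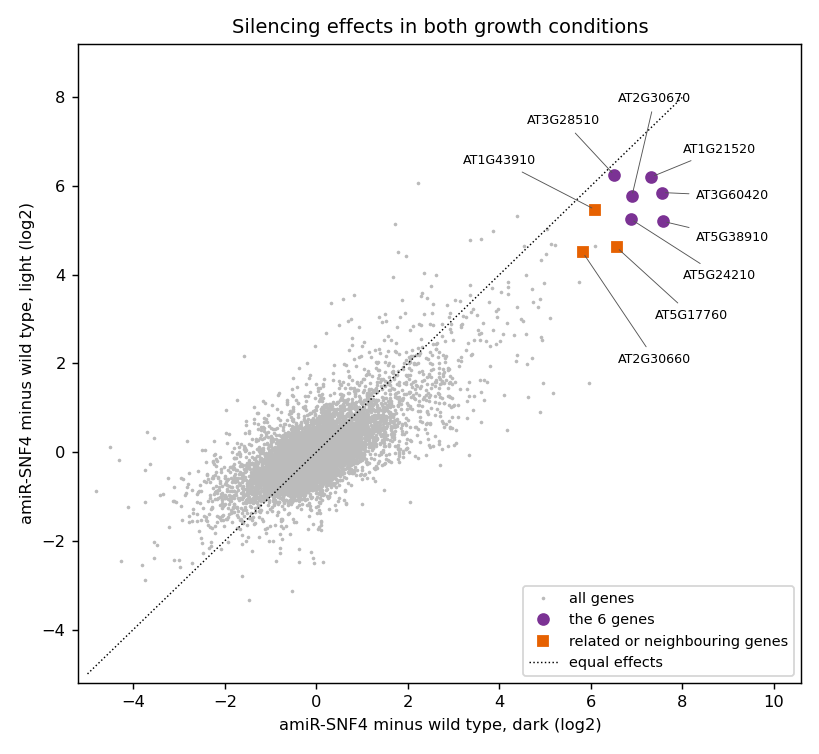
Silencing effect (amiR-SNF4 minus wild type, log2) in darkness on the horizontal axis and in light on the vertical axis, for all 13356 genes (grey). The 6 genes (purple circles) lie at 6.51 to 7.58 in darkness and 5.20 to 6.24 in light, all below the dotted line of equal effects; AT1G43910, AT5G17760 and AT2G30660 (orange squares) lie near them.

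In the amiR-SNF4 seedlings all 6 genes had lower means in light than in darkness. The level of AT5G38910 was lower by a log2 difference of -2.46 ± 0.26 (SE, n = 3 arrays a group), or 5.49-fold. In the other 5 genes the level was 1.45-fold to 1.70-fold lower. The log2 difference was -0.72 ± 0.12 for AT3G60420, -0.76 ± 0.23 for AT1G21520, -0.57 ± 0.16 for AT2G30670, -0.54 ± 0.14 for AT5G24210 and -0.57 ± 0.19 for AT3G28510. In all 6 genes the 3 silenced arrays from light were below the 3 from darkness, a separation seen in 21.9% of all genes. The rule had used these levels, so nothing is read from that count.

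The direction of the smaller differences depended on how the arrays were scaled to each other. When each array was scaled to its hybridisation control probe sets, the median of all genes in the same comparison moved from -0.01 to 0.62, and only AT5G38910 remained lower in light. The other 5 genes were then higher, by 0.18 for AT1G21520 to 0.70 for AT5G24210. Relative to that median, 5 of 6 genes were still lower and AT5G24210 was 0.08 higher, but AT2G30670 and AT3G28510 were within 0.01 of it. Without any scaling the median moved to 0.16 and AT5G24210 was at 0.02.

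In wild type the difference between light and darkness was -0.07 for AT5G38910, 0.98 for AT3G60420, 0.35 for AT1G21520, 0.56 for AT2G30670, 1.08 for AT5G24210 and -0.30 for AT3G28510. AT3G60420, AT2G30670 and AT5G24210 thus had higher wild-type and lower silenced levels in light than in darkness, under quantile normalisation.

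**Figure D3:**
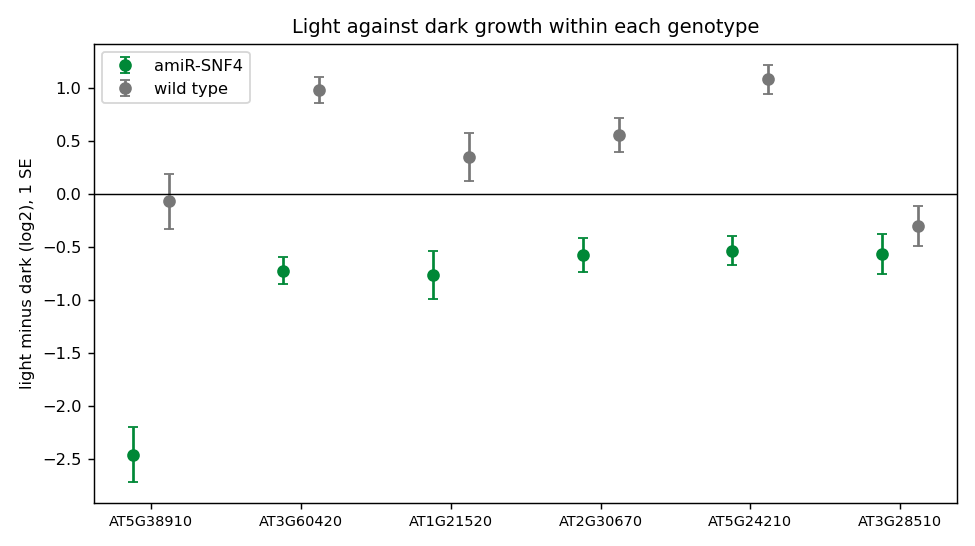
Difference between light and dark growth (log2) for each gene within amiR-SNF4 (green) and wild type (grey), with bars of 1 SE from limma. The silenced values lie between -2.46 and -0.54 under quantile normalisation, and all but that of AT5G38910 turn positive when arrays are scaled to the hybridisation controls.

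The mean silencing effect was thus smaller in light than in darkness, by amounts that varied. As light minus dark on the log2 scale, it differed by -2.39 ± 0.36 in AT5G38910, -1.70 ± 0.18 in AT3G60420 and -1.62 ± 0.19 in AT5G24210. The differences were -1.13 ± 0.23 in AT2G30670 and -1.11 ± 0.32 in AT1G21520. That of AT3G28510, -0.27 ± 0.27, was no larger than its standard error. Under scaling to the hybridisation controls that of AT3G28510 became 0.80 and the others remained negative, between -1.56 and -0.46. With a constant of 1 AT3G28510 was at 0.95 and AT3G60420 at -3.69.

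Over the 12 arrays the 6 profiles were alike, as follows from a rule that sets silenced arrays far above wild-type ones. Pearson's r with the mean profile of the 6 genes was 0.983 for AT5G38910 and 0.994 to 0.998 for the rest. Among the other genes the profile was most alike in AT2G04050 (r = 0.998), AT5G51830, a sugar kinase of the pfkB family (r = 0.997), AT1G43910 (r = 0.996), SAG101 (r = 0.993), AT2G30660 (r = 0.992) and AT1G13470 (r = 0.991). These 6 had quite different sizes of rise. AT5G51830 rose by 2.76 in darkness and 2.20 in light on the log2 scale, and AT1G13470 by 3.39 and 3.17. The 12 arrays fall into groups far apart, so r here mainly describes the order of the groups, and no p is given.

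Relatives of the 6 genes were taken from family lists drawn from general knowledge, with earlier results of these arrays known. Of 116 listed relatives in 5 families, 66 were measured. In darkness 23 of the 66 rose and 11 fell, and 32 were not called, against 14.3% of all genes called higher and 16.5% lower. In light 15 rose and 8 fell, and 43 were not called, against 9.14% and 9.95%. The median silencing effect of all genes was -0.03 in both conditions.

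Several AAA-type ATPases related to AT3G28510 rose with it. Of 24 listed, 15 were measured, 8 rose in darkness and the same 8 rose in light, and 1 fell in darkness. Of all genes, 14.3% rose and 16.5% fell in darkness, and 9.14% rose in light. The list was drawn up with earlier results of these arrays known. The median effect was 0.83 in darkness and 0.66 in light. With the dimmer genes left out, 4 rose in each condition, out of fewer tested members whose number is not given here. AT5G17760 reached 94.3-fold in darkness and 24.6-fold in light (limma adjusted p = 3.02e-10 and 1.25e-08). AT1G43910 reached 68.1-fold and 44.2-fold (limma adjusted p = 2.87e-11 and 1.12e-10). The lowest of the family in darkness was AT3G29800 at -0.50 ± 0.15 (limma adjusted p = 0.0192), a call lost without dark-grown wild-type replicate 1 or 2, when its adjusted p was 0.0580 and 0.0871, and under both scaling to the hybridisation controls and no scaling.

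Within this family the growth condition went in opposite directions. The silencing effect of AT5G17760 was smaller in light, a log2 difference of -1.94 ± 0.30 (limma adjusted p = 0.00142). Over all genes 7.98% passed that test in either direction. AT5G17760 was named for the family's largest effect in darkness, and this choice biases the difference towards a smaller effect in light. Nothing is read from its p. Its wild-type mean was 5.22 in darkness and 6.59 in light, and its silenced mean 11.77 and 11.21. The silencing effect of AT3G28540 was larger in light, 11.6-fold against 1.78-fold in darkness, a log2 difference of 2.71 ± 0.26 (limma adjusted p = 4.96e-05). AT3G28580 rose 8.85-fold in light and 3.85-fold in darkness, a log2 difference of 1.20 ± 0.23 (limma adjusted p = 0.00562), which did not pass with a constant of 1 (limma adjusted p = 0.281). The last 2 of these were chosen after their values were seen, so nothing is read from their p either.

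Among the germin-like genes other than AT5G38910, 31 were listed and 11 measured. Of these, 4 rose and 2 fell in darkness, and 2 rose and 1 fell in light, with median effects of 0.16 and 0.09. Over all genes 14.3% rose and 16.5% fell in darkness, and 9.14% and 9.95% in light, so the falls are near the share of all genes. Only 2 rose in darkness when the arrays were scaled to the hybridisation controls, and 1 when the dimmer genes were left out. AT5G39130 had the highest rise, 3.96-fold in darkness and 3.29-fold in light (limma adjusted p = 4.05e-06 and 3.00e-05). AT3G10080 had the deepest fall, by 1.52 ± 0.20 on the log2 scale in darkness (limma adjusted p = 6.52e-05) and by 1.37 in light (limma adjusted p = 0.000309).

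Of 14 listed relatives of AT3G60420 among the phosphoglycerate mutase-like genes, 11 were measured. In darkness 5 rose and 2 fell, and in light 3 rose and 1 fell, with medians of 0.19 and -0.09. The shares of all genes were 14.3% risen and 16.5% fallen in darkness, and 9.14% and 9.95% in light. AT3G60450 rose 7.45-fold in darkness and 3.65-fold in light (limma adjusted p = 2.00e-08 and 1.97e-06). AT5G64460 fell by 0.94 ± 0.20 in darkness (limma adjusted p = 0.00247) and was at -0.56 in light (limma adjusted p = 0.0652).

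The class 3 lipase family gave 15 measured genes of 32 listed, with 5 risen and 2 fallen in darkness, 2 risen and 1 fallen in light, and medians of 0.20 and -0.21. Among all genes 14.3% rose and 16.5% fell in darkness, and 9.14% and 9.95% in light. The family's highest rise was that of SAG101, a lipase-like protein that acts with EDS1 in plant immunity, at 13.0-fold in darkness and 5.69-fold in light (limma adjusted p = 2.87e-09 and 1.54e-07). AT2G42690 fell by 1.00 ± 0.16 in darkness (limma adjusted p = 0.000307) and was at -0.09 in light (limma adjusted p = 0.807).

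More tropinone reductase-like genes fell than rose, which was also so over all genes. There 16.5% fell and 14.3% rose in darkness, and 9.95% and 9.14% in light. Of 14 measured among 15 listed, 1 rose and 4 fell in darkness, none rose and 5 fell in light, and the medians were -0.12 and -0.25. Scaling to the hybridisation controls left 3 fallen in darkness and 2 in light. AT2G29150 was the one that rose, 3.10-fold in darkness (limma adjusted p = 0.000357), with a log2 value of -0.23 in light (limma adjusted p = 0.654). TRI, a tropinone reductase, fell by 1.99 ± 0.16 in darkness (limma adjusted p = 9.37e-07) and by 1.03 in light (limma adjusted p = 0.000620).

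**Figure D4:**
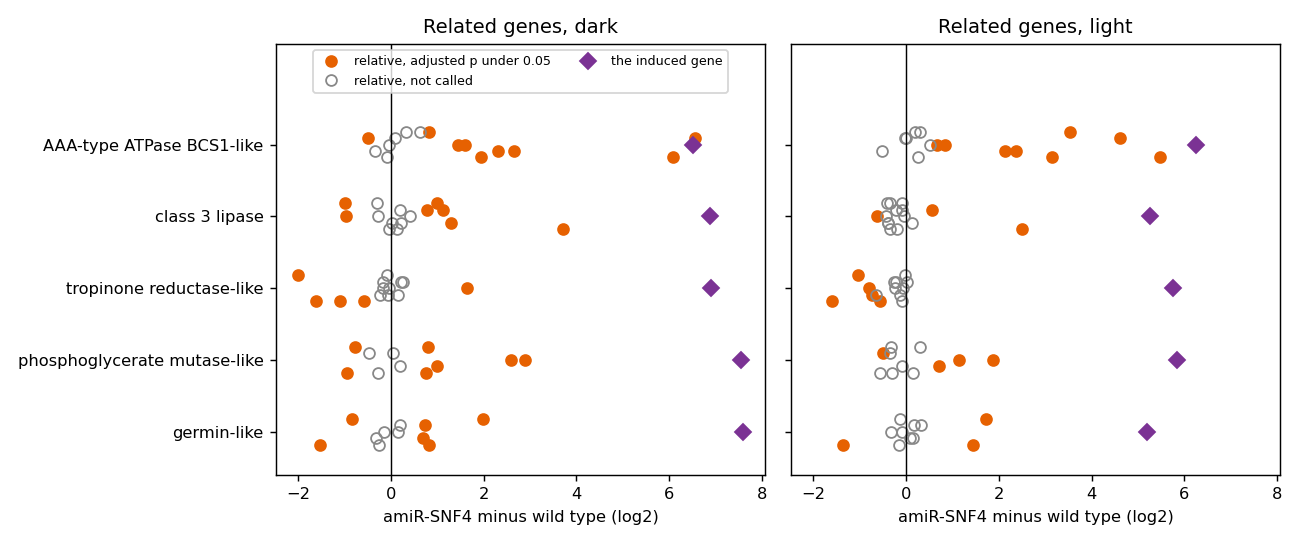
Silencing effect (log2) of the measured relatives of 5 of the genes, by family, in darkness (left) and light (right). Filled orange points passed an adjusted p of 0.05, open grey points did not, and purple diamonds are the induced genes themselves; AAA-type relatives reach 6.56 in darkness, while no germin-like relative passes 1.99 there.

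The genes beside each of the 6 on the chromosome were also compared, a choice made after seeing the data. Of 60 genes within 5 places on either side in the RefSeq gene order (TAIR10.1), 40 were measured. Of the 40, 15 rose and 6 fell in darkness, and 9 rose and 6 fell in light, with medians of 0.10 and 0.01. These counts are not separate from those of the families above. AT5G38950, AT5G38960, AT3G60440, AT3G60450, AT5G24230, AT3G28520 and AT3G28540 are in both. Of these, AT5G38960, AT3G60440, AT3G60450, AT5G24230 and AT3G28540 rose in darkness. Over all genes 14.3% rose and 16.5% fell in darkness and 9.14% and 9.95% in light, so the 6 of 40 that fell in darkness are near the share of all genes. AT2G30660, directly beside AT2G30670, rose 56.5-fold in darkness and 22.7-fold in light (limma adjusted p = 3.82e-09 and 6.99e-08). AT5G38900, directly beside AT5G38910, rose by 3.17 and 2.87 on the log2 scale (limma adjusted p = 5.05e-08 and 2.57e-07). Near AT3G60420, AT3G60440 rose 2.00-fold and 1.63-fold, AT3G60450 7.45-fold and 3.65-fold, and AT3G60470 4.04-fold and 2.56-fold. Near AT1G21520, AT1G21530 rose by 2.58 and 1.59 on the log2 scale and AT1G21550 by 1.44 and 0.81. Near AT3G28510, AT3G28480 rose 2.09-fold and 2.81-fold and AT3G28540 1.78-fold and 11.6-fold. Each of these had a limma adjusted p of 0.00981 or less in both conditions, but in light AT3G60440 did not pass without scaling (0.0890) nor, with a constant of 64, AT1G21530 (0.0863) and AT1G21550 (0.112). AT1G21560 had the deepest fall of the neighbours in darkness, by 1.32 ± 0.20 (limma adjusted p = 0.000233), with a log2 value of -0.68 in light (limma adjusted p = 0.0322). That light value lost its call when any 1 of the 6 light-grown arrays was left out. AT1G21500 fell by 0.85 ± 0.22 in darkness (limma adjusted p = 0.00875) and by 1.41 in light (limma adjusted p = 0.000473), and its dark value did not pass under scaling to the hybridisation controls (limma adjusted p = 0.131). They were named after their values were seen. Leaving out the dimmer genes left 8 neighbours risen in darkness. None of the neighbours rose as far as the gene it stood beside, which follows from a rule that chose genes with the largest rises.

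**Figure D5:**
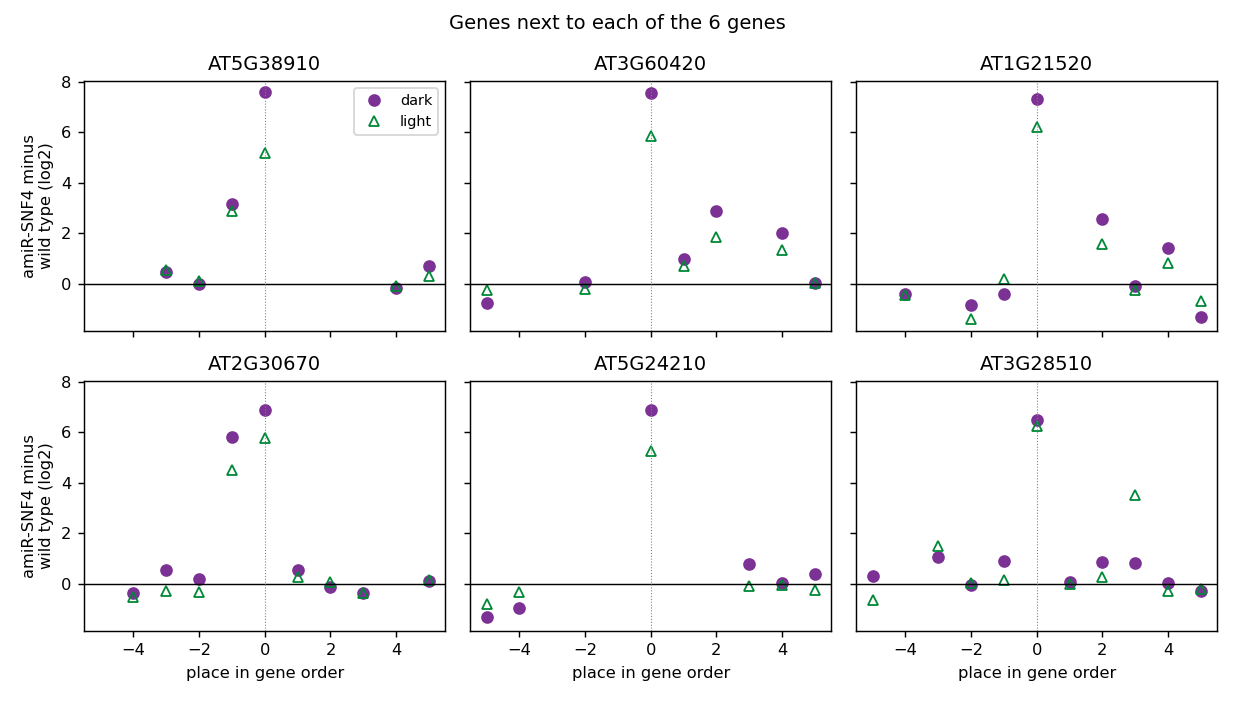
Silencing effect (log2) of the measured genes within 5 places of each of the 6 genes, by place in the gene order, with the gene itself at 0. Filled circles are darkness and open triangles light; only AT2G30660, at 5.82 in darkness, comes near its neighbour.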

How the data were processed

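Total RNA of the 12 samples was hybridised to 1-colour ATH1 arrays. The deposited values were probe-set intensities on a linear scale, made with GCOS per the submitters' processing notes; its scaling is not given in the sources used here. Of 22810 probe sets, 64 controls were left out. The rest were quantile normalised and set to log2(intensity + 16). Names came from the platform annotation, and 13513 probe sets had 1 gene, 503 several and 8730 none. The probe set with the highest mean over the 12 arrays, silenced ones included, stood for each of 13356 genes. Limma (version 3.58.1, in R 4.3.3) was fitted across all genes and 4 groups, with Benjamini-Hochberg adjusted p-values and a threshold of 0.05. The procedure was run on simulated data for light against dark in silenced seedlings only, with independent noise on normalised values. The silencing effects and the difference between them were not simulated.

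The members and lists were chosen with earlier results of these data known. Light against dark and the difference between silencing effects were planned as tests of the 6 genes, but use the levels that chose them and are given for them without a test. Named were the 6 genes, those beside their limit, the 6 most alike in profile, and each list's largest and smallest effect in darkness. Neighbours were named where they rose in both conditions or had the deepest fall. The samples were fitted without pairing, as the labels do not say whether same-numbered samples share a batch. Deviations of same-numbered arrays correlated at -0.326 to 0.200 over 18 pairs, and those of other arrays at -0.229 to 0.363 over 36. With so few arrays a group these overlapping ranges cannot show whether the samples were paired. No sequences or promoters were used here. Alternatives were the scaling, the constant, a filter on dim genes, all probe sets, a replicate term and leaving out arrays.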

Additional observations from a re-analysis of the deposited data

Results flagged for a closer look

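In 3 relatives of AT3G28510 the estimated silencing effect was unlike between growth conditions (light minus dark, log2, quantile normalisation). All 3 were picked on these values, so the difference is described and nothing is read from a test. It was smaller in light for AT5G17760 (-1.94) and larger in light for AT3G28540 (2.71) and AT3G28580 (1.20). AT5G17760 was named for its large effect in darkness, which biases its difference downward. Its wild-type mean was 5.22 in darkness and 6.59 in light, and its silenced mean 11.77 and 11.21. AT3G28540 and AT3G28580 were chosen after their values were seen. The cause of these differences was not tested.

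Among 8730 probe sets with no gene name here, 5 rose at least as far in both conditions as the lowest of the 6 genes. Their smaller folds were 72.5, 64.4, 56.6, 56.3 and 46.3.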

How the results depend on the processing

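The 6 silencing effects stayed above 14-fold in both conditions under each of the 9 other settings and without each of the 12 arrays, apart from the second probe set of AT3G60420 (-0.084 in darkness; light minus dark -0.11 in wild type, 0.041 in silenced seedlings and 0.15 for the difference).

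For light minus dark in silenced seedlings, scaling to hybridisation controls reversed AT1G21520 (0.18), AT2G30670 (0.62), AT3G28510 (0.62), AT3G60420 (0.52) and AT5G24210 (0.70) and moved AT5G38910 to -1.30. No scaling gave -0.51, -0.070, -0.066 and -0.16 for the first 4, reversed AT5G24210 (0.017) and gave -1.99 for AT5G38910. Median scaling gave -0.58 for AT3G60420 and -0.40 for AT5G24210.

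For the difference between silencing effects, hybridisation controls gave -0.83 for AT1G21520, -0.46 for AT2G30670, -0.68 for AT3G60420, -0.76 for AT5G24210 and -1.56 for AT5G38910. No scaling gave -0.92, -1.26 and -1.27 for AT2G30670, AT3G60420 and AT5G24210, a constant of 1 -1.48, -3.69 and -2.69, and a constant of 64 -0.82, -1.04 and -0.97. Median scaling gave -1.48 for AT3G60420 and -1.42 for AT5G24210. AT3G28510 turned positive with hybridisation controls (0.80), no scaling (0.17) and a constant of 1 (0.95). Without single arrays AT1G21520 ranged from -1.39 to -0.83 and AT3G28510 from -0.49 to -0.074. AT3G28580's call ended with a constant of 1 (1.82).

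Counts of calls over all genes were 4113 for silencing in darkness, 2550 in light, 4493 and 4656 for light in silenced and wild-type seedlings, and 1066 for the difference. With all probe sets, more numerous, they were 8161, 5353, 8778, 8971 and 2364. Hybridisation controls gave 2546 in darkness (1382 higher, 1164 lower), 1825 in light (1192 and 633), 7523 for light in silenced seedlings (7135 and 388), 6806 in wild type (6385 and 421) and 381 for the difference. No scaling gave 2282 (1321 and 961), 1486, 3258 (2511 and 747), 4268 (3649 and 619) and 278 (88 and 190). A constant of 1 gave 637 for the difference. The cause of these shifts was not tested.

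With the replicate number as a block, the counts were 3911, 2345, 4293, 4487 and 902. The labels do not say whether that number stands for a batch. The differences of the 6 genes kept their values, which the design fixes because every group holds each replicate number, so nothing is read from it. Low wild-type intensities limit the precision of the folds.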
